A study of Solanum lycopersicum with 15 samples.

Results

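FRO1 (Solyc01g094910), the ferric-chelate reductase of tomato roots, and the IRT iron transporter loci Solyc02g069200 and Solyc02g069190 were followed across 5 nutrient regimes of tomato (Solanum lycopersicum) roots. They are 3 of the 34075 genes in the expression table, were chosen by their identifiers and not by their values, and all 3 were present and above 0 in all 15 libraries. FRO1 lies on chromosome 1 by its identifier, and the IRT loci are neighbours on chromosome 2. Polyadenylated RNA was sequenced from 3 libraries per regime. Control roots had neither iron nor nitrogen (-Fe-N). A second group was resupplied with iron but no nitrogen (+Fe-N, iron alone), and the other groups were resupplied with iron together with nitrate (+Fe+Ni), ammonium (+Fe+A) or urea (+Fe+U). The labels used here give no variety, plant age, dose or time of resupply, and no separate plants or cultures are named for the replicates, so the p-values measure the spread between libraries, which may be technical. The root label was not checked against marker genes, because the table pairs no identifier with a gene name.

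Tomato, like most plants other than grasses, takes up iron by reduction. Roots acidify the soil solution, a plasma membrane ferric-chelate reductase of the FRO family reduces ferric iron at the root surface, and IRT transporters of the ZIP family carry the ferrous iron into the cell. In iron-deficient roots FRO and IRT genes can be transcriptionally induced, under basic helix-loop-helix regulators.

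Levels are in FPKM, which counts fragments per kilobase of a transcript and per unit of mapped fragments, so that levels of different genes can be set side by side. The FPKM sums of the libraries lay between 546848 and 589451, and 18889 genes that reached 1 FPKM in 3 or more libraries were tested, all 3 loci among them. Without read counts the absolute depth is unknown. Relative depth, read from the spacing of low values, ranged from 0.876 to 1.28. A gene was called changed at a limma p-value under 0.05 after Benjamini-Hochberg adjustment over all tested genes. Differences are on the log2(FPKM + 1) scale, which understates the change of low genes. Fold values are ratios of mean FPKM, whereas log2 differences are differences of mean log values, so they need not match.

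FRO1 had its lowest mean in control roots and its highest with iron and nitrate. In control roots FRO1 stood at 0.464, 5.32 and 10.5 FPKM in replicates 1, 2 and 3. With iron alone it was at 43.0, 30.3 and 7.04 FPKM, so replicate 3 fell within the range of the control libraries. With nitrate the values were 30.2, 118 and 63.2 FPKM. All nitrate libraries lay above all control libraries, and replicate 2 held the highest FRO1 level of the series, 255 times that of control replicate 1. Ammonium libraries stood at 44.6, 14.5 and 54.1 FPKM. Urea libraries were, in proportion, the closest to each other, at 34.1, 44.6 and 33.0 FPKM. By their means the regimes ran from control (5.43 ± 5.03 FPKM, SD, n = 3) through iron alone (26.8 ± 18.2), urea (37.2 ± 6.40) and ammonium (37.7 ± 20.7) to nitrate (70.5 ± 44.4). None of the neighbours in this order differed by the test, from control and iron alone (adjusted p = 0.11) to ammonium and nitrate (adjusted p = 0.61).

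Solyc02g069200 was the more abundant IRT locus in every library and followed much the same course. Control roots held it at 3.20, 23.2 and 33.2 FPKM, and roots given iron alone at 76.2, 62.1 and 18.6 FPKM. As for FRO1, control replicate 1 was the lowest library and iron-alone replicate 3 lay among the controls. With nitrate it reached 81.3, 196 and 119.9 FPKM, above every library of control, iron alone and ammonium. Ammonium libraries were at 52.3, 24.0 and 66.9 FPKM and overlapped both control and iron alone. With urea the level was 104, 101 and 82.6 FPKM, above every iron-alone and ammonium library. The order of the means was control (19.8 ± 15.2 FPKM, n = 3), ammonium (47.7 ± 21.8), iron alone (52.3 ± 30.0), urea (95.8 ± 11.6) and nitrate (133 ± 58.5). Neighbours in this order were again not separated by the test, with adjusted p between 0.13 for control and ammonium and 0.99 for ammonium and iron alone.

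Solyc02g069190 was the lowest of the 3 loci by its mean over all libraries, at 11.6 FPKM against 35.5 for FRO1 and 69.6 for Solyc02g069200, and was the one highest with urea rather than nitrate. Control libraries held 0.482, 0.768 and 1.84 FPKM. With iron alone they were at 7.27, 5.73 and 2.02 FPKM, the lowest just above the highest control. Nitrate gave 13.2, 22.3 and 11.4 FPKM, above all iron-alone and ammonium libraries. The ammonium libraries, at 7.47, 2.64 and 5.21 FPKM, covered nearly the same range as iron alone. In urea roots the values were 31.7, 31.6 and 30.8 FPKM, above every other library of the series and close together. Their SD was 0.497 FPKM around a mean of 31.3, against SDs of 0.715 to 5.81 FPKM in the other regimes (n = 3 each). Its order of means was control (1.03 FPKM), iron alone (5.01), ammonium (5.11), nitrate (15.6) and urea (31.3). The steps from control to iron alone and from ammonium to nitrate passed the test (adjusted p = 0.037 and 0.035), while iron alone and ammonium (adjusted p = 0.94) and nitrate and urea (adjusted p = 0.086) were not separated.

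**Figure D1:**
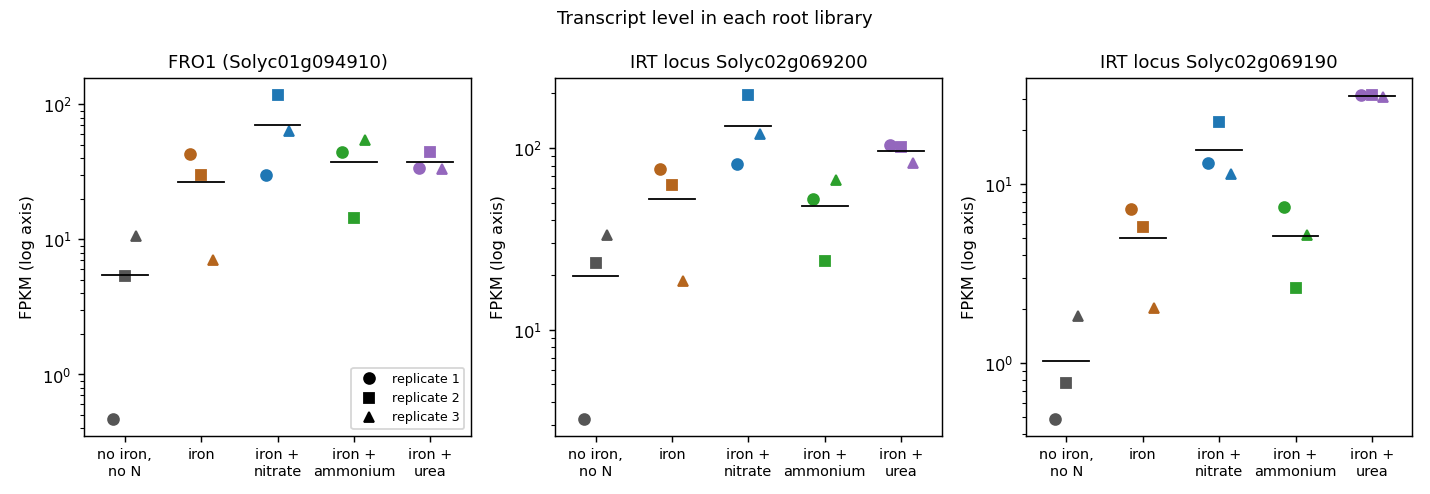
FPKM (log axis) of FRO1, Solyc02g069200 and Solyc02g069190 in each of the 15 libraries by regime, with symbols for the replicate number and bars at the mean of 3. Control replicate 1 is the lowest library in all 3 panels, and the 3 urea libraries coincide at 30.8 to 31.7 FPKM for Solyc02g069190.

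A test over all 5 regimes found differences for each locus. The moderated F statistic was 6.64 for FRO1 (adjusted p = 0.015), 5.87 for Solyc02g069200 (adjusted p = 0.021) and 32.6 for Solyc02g069190 (adjusted p = 3.6e-05). Of all tested genes 37.8% passed this test, so passing it does not set the loci apart. The FRO1 call rested on 1 library, as it was lost without control replicate 1 (adjusted p = 0.0591).

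Resupply of iron alone, without nitrogen, raised Solyc02g069190 only by a narrow margin, and the changes of the other loci did not pass the test. Solyc02g069190 rose 4.86-fold in its mean, and by 1.50 ± 0.39 (SE) on the log2 scale (adjusted p = 0.037). Its lowest iron-alone library, at 2.02 FPKM, lay just above its highest control library, at 1.84 FPKM. For FRO1 the means differed 4.92-fold, with a log2 difference of 2.23 and a 95% interval of 0.55 to 3.91 (adjusted p = 0.11). For Solyc02g069200 the log2 difference was 1.60, with an interval of 0.10 to 3.09 (adjusted p = 0.20). Thus 1 of 3 loci was called, where 2.97% of all tested genes rose. The direction in which these loci differed, higher with iron than without it, was shared by all 3 means. It is opposite to the induction in iron-deficient roots described above, and the cause was not tested. The call of Solyc02g069190 was lost without control replicate 1 or 2 (adjusted p = 0.118 and 0.113) and without iron-alone replicate 1 or 2 (0.145 and 0.12). It was also lost with only these groups fitted (0.106), without the filter on low values (0.0582) and without the variance trend (0.0501). Without control replicate 1 the difference of Solyc02g069200 was 0.67 (adjusted p = 0.58), and FRO1 was called without iron-alone replicate 3 (log2 difference 2.97, adjusted p = 0.0379). These values are of bulk roots, in which more transcript per cell and more cells expressing a gene cannot be told apart.

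Iron together with each nitrogen form was also compared with control roots. With nitrate all 3 loci rose (6.92% of all tested genes rose in this comparison). FRO1 increased 13.0-fold in its mean, by 3.71 ± 0.78 (SE) on the log2 scale (adjusted p = 0.0054). Solyc02g069200 increased 6.68-fold in its mean, and by 3.05 ± 0.69 on the log2 scale (adjusted p = 0.0086). Solyc02g069190 increased 15.2-fold in its mean, and by 3.04 ± 0.39 on the log2 scale (adjusted p = 0.00016). With urea all 3 loci rose as well, where 9.74% of tested genes rose. The rise was 30.4-fold for Solyc02g069190 (log2 difference 4.05, standard error 0.39, adjusted p = 8.5e-06), 6.85-fold for FRO1 (3.00, standard error 0.78, adjusted p = 0.012) and 4.83-fold for Solyc02g069200 (2.67, standard error 0.69, adjusted p = 0.012). With iron and ammonium together 2 of the 3 loci rose, where 9.89% of tested genes rose. FRO1 rose 6.95-fold (log2 difference 2.84, adjusted p = 0.020) and Solyc02g069190 4.96-fold (1.56, adjusted p = 0.011), whereas Solyc02g069200 differed by 1.57 with an interval of 0.07 to 3.06 (adjusted p = 0.13). These comparisons share the control libraries with each other and with that of iron alone. Without control replicate 1 the FRO1 differences became 1.99 for ammonium (adjusted p = 0.0827) and 2.15 for urea (0.0503), and the ammonium call of FRO1 was also lost without ammonium replicate 1 or 3 (0.0709 and 0.0736) and when only the groups compared were fitted (0.0522). Without control replicate 1 the difference of Solyc02g069200 became 1.75 for urea, still called (adjusted p = 0.0383), and 0.64 for ammonium (0.478). The ammonium call of Solyc02g069190 was lost without ammonium replicate 1 (adjusted p = 0.0565).

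Each nitrogen form was set against iron alone to see what it adds, and the calls among the 3 loci were both of Solyc02g069190. Urea raised it 6.26-fold over iron alone, by 2.55 ± 0.39 (SE) on the log2 scale (adjusted p = 0.00051), where 5.75% of tested genes rose. Nitrate raised it 3.12-fold, by 1.54 ± 0.39 (adjusted p = 0.020), where 4.58% rose. That nitrate call was lost without iron-alone replicate 3 (log2 difference 1.10, adjusted p = 0.0716), without nitrate replicate 2 (0.081) and with only these groups fitted (0.077). Ammonium left its mean at 5.11 FPKM against 5.01 with iron alone, with an interval of -0.77 to 0.89 for the log2 difference (adjusted p = 0.94). For FRO1 the log2 differences from iron alone were 1.48 with nitrate (interval -0.20 to 3.16, adjusted p = 0.26), 0.61 with ammonium (-1.07 to 2.28, 0.67) and 0.77 with urea (-0.91 to 2.45, 0.54). For Solyc02g069200 they were 1.45 with nitrate (interval -0.04 to 2.95, adjusted p = 0.21), -0.03 with ammonium (-1.52 to 1.47, 0.99) and 1.07 with urea (-0.42 to 2.57, 0.32). The upper ends of these intervals lay between 1.47 and 3.16, so a missing call for FRO1 or Solyc02g069200 does not show that a nitrogen form had no effect on it. With ammonium limma called 0 of the 3 loci, at raw p from 0.45 to 0.97, where 13.9% of tested genes changed.

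Direct comparison of the nitrogen forms separated ammonium from the other two for Solyc02g069190. Its level was 6.14-fold higher with urea than with ammonium (log2 difference for ammonium minus urea -2.49, standard error 0.39, adjusted p = 0.0013), in a comparison in which 3.97% of tested genes were higher with urea. It was 3.06-fold higher with nitrate than with ammonium (1.47, standard error 0.39, adjusted p = 0.035), where 3.38% of genes were higher with nitrate. The call between nitrate and ammonium was lost without nitrate replicate 1 or 2 (adjusted p = 0.0623 and 0.129), without ammonium replicate 2 or 3 (0.134 and 0.0709), with a pseudocount of 0.1 (0.0731), without the filter on low values (0.0592) and with only these groups fitted (0.0801). Between nitrate and urea the libraries did not overlap, but the difference of -1.01 (interval -1.85 to -0.18) did not pass over all genes (adjusted p = 0.086), and it passed when only these groups were fitted (0.0261) and without iron-alone replicate 3 (0.0389). In that comparison 0 of the 3 loci were called by limma, 1 had a raw p under 0.05, and 19.6% of tested genes differed. FRO1 did not differ between the forms by the test, with log2 differences of 0.87 for nitrate minus ammonium, 0.71 for nitrate minus urea and -0.16 for ammonium minus urea (adjusted p = 0.61, 0.58 and 0.93). Solyc02g069200 was higher in each nitrate library than in each ammonium library, but its log2 difference of 1.48 had an interval of -0.02 to 2.98 (adjusted p = 0.26).

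**Figure D2:**
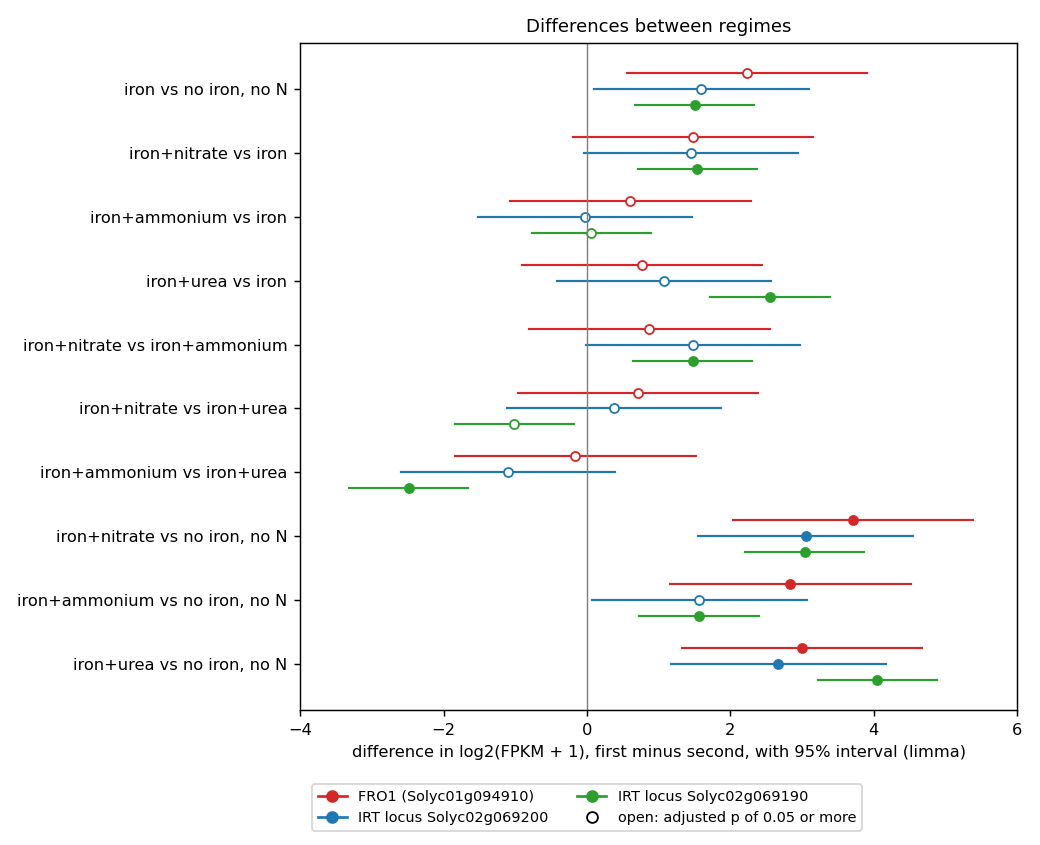
Differences in log2(FPKM + 1) between regimes (x axis, first minus second) with 95% limma intervals for FRO1, Solyc02g069200 and Solyc02g069190 in the 10 comparisons; filled points passed an adjusted p of 0.05. Solyc02g069190 passed in 8 of 10 comparisons with short intervals, FRO1 in 3 and Solyc02g069200 in 2 with long ones.

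The ratio of Solyc02g069190 to Solyc02g069200 was highest in the urea libraries. Within a library, the FPKM of Solyc02g069190 was 30.4%, 31.4% and 37.3% of that of Solyc02g069200 in the urea libraries. In the other regimes this share ran from 9.22% to 10.9% with iron alone, from 9.54% to 16.2% with nitrate, from 7.79% to 14.3% with ammonium, and from 3.32% to 15.1% in control roots. Every urea library thus lay above each of the 12 others. The log2 ratio was higher with urea than with iron alone by 1.74 with a standard error of 0.12, and higher than with ammonium by 1.62 with a standard error of 0.27. An exact two-sided permutation test of 3 against 3 libraries gave p = 0.1 for both, the smallest it allows, and 0.214 after adjustment over the 30 ratio comparisons computed. The ratio of Solyc02g069200 to FRO1 was 6.91, 4.36 and 3.15 in control roots and lower in every library given iron, at 1.17 to 3.06. With ammonium it was lowest, at 1.17, 1.66 and 1.24, although ammonium replicate 2 and nitrate replicate 2, both at 1.66, were almost equal. The remaining ratio computed, of Solyc02g069190 to FRO1, was 0.708 to 0.933 with urea. Control replicate 1 was higher, at 1.04, and the other libraries lay at 0.0963 to 0.438. In control replicate 1 Solyc02g069190 and FRO1 were at 0.482 and 0.464 FPKM, so its ratios rest on very low levels. These ratios were compared after their values had been seen.

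**Figure D3:**
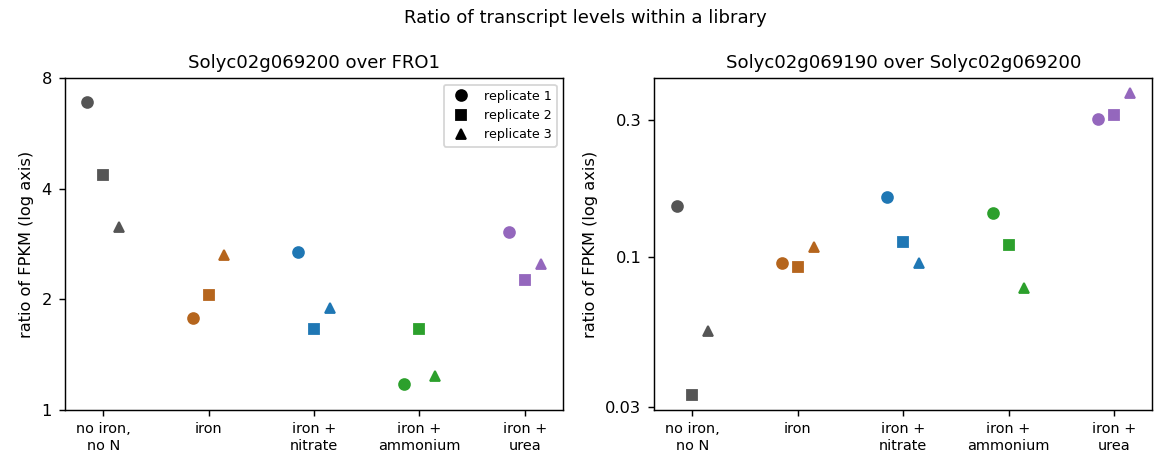
Ratio of FPKM values within each library (log axis) by regime, Solyc02g069200 over FRO1 at left and Solyc02g069190 over Solyc02g069200 at right, with symbols for the replicate number. The urea libraries stand apart at right at 0.304 to 0.373; at left the control libraries, at 3.15 to 6.91, are the highest, the lowest of them close to a urea library at 3.06.

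The 3 loci varied far more between libraries of a regime than most genes did, and they varied together. The SD within regimes was 1.09 for FRO1, 0.98 for Solyc02g069200 and 0.53 for Solyc02g069190 on the log2 scale, against a median of 0.18 over all tested genes, and 99.1%, 98.7% and 94.0% of tested genes had a smaller SD. The highest and lowest library of a regime differed 22.7-fold for FRO1 in control roots and 6.10-fold with iron alone, but 1.35-fold with urea. In 4 of the 5 regimes the same library was the lowest for all 3 loci, and in 3 the same library was the highest. Departures from the regime mean correlated at 0.975 between FRO1 and Solyc02g069200, at 0.858 between FRO1 and Solyc02g069190, and at 0.796 between the IRT loci (Pearson, 15 libraries). Without the 2 libraries farthest from the median these values were 0.967, 0.823 and 0.773. The levels themselves correlated at 0.958, 0.79 and 0.852 (Spearman 0.807, 0.671 and 0.889). Genes of the same libraries share depth and RNA composition, and these values only describe how alike the loci were. Relative depth was 0.92 in control replicate 1, against 1.04 and 1.01 in the other control libraries. In iron-alone replicates 1, 2 and 3 depth was 1.28, 0.938 and 1.0. There replicate 1 was the highest library and replicate 3 the lowest for all 3 loci. In ammonium replicates 1, 2 and 3 depth was 0.914, 1.02 and 0.919, and replicate 2 was the lowest library for all 3 loci. Urea replicates 1, 2 and 3 had depths of 1.07, 1.02 and 1.1, and replicate 3 was the lowest library for all 3 loci. In nitrate replicates 1, 2 and 3 depth was 0.949, 1.0 and 0.876, and replicate 2 was the highest library for all 3 loci. The part of depth in the shared departures was not tested.

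**Figure D4:**
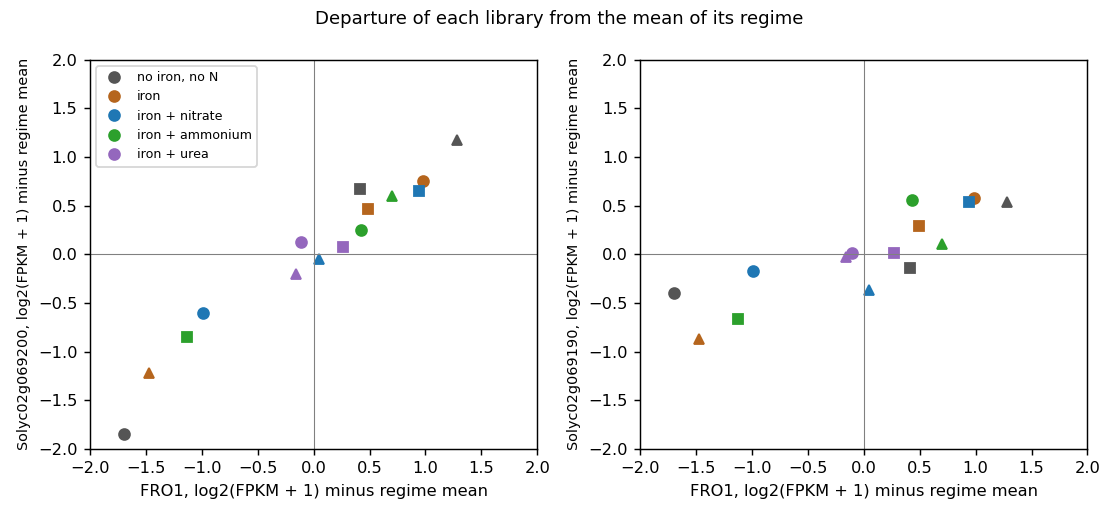
Departure of each library from the mean of its regime in log2(FPKM + 1), for FRO1 on the x axis and Solyc02g069200 (left) or Solyc02g069190 (right) on the y axis, coloured by regime with the replicate symbols of the plot of levels. The points run along a diagonal (r = 0.975 and 0.858), with the urea libraries near the centre. Control replicate 1 and iron-alone replicate 3 are at the low end of the FRO1 axis. At right control replicate 1 lies off the diagonal and is less low on the y axis than iron-alone replicate 3 and ammonium replicate 2.

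A small number of other genes shared this pattern. The genes most like FRO1 over the 15 libraries were Solyc12g017350 (Pearson r = 0.984, Spearman 0.979), Solyc11g045520 (0.981 and 0.932) and Solyc11g018530 (0.978 and 0.896). Their departures within regimes correlated with those of FRO1 at 0.988, 0.981 and 0.97. Solyc02g069200 was most like Solyc12g017340 (r = 0.936), Solyc11g018530 (0.935) and Solyc12g017350 (0.923), of which 2 also lead the list for FRO1. Solyc02g069190 had other closest genes, Solyc10g079680 (r = 0.922), Solyc09g064870 (0.916) and Solyc10g079660 (0.912). The mean of each of them was highest with urea, at 10.4, 30.6 and 5.92 FPKM, which their selection by likeness to Solyc02g069190 favours. Of 18888 other tested genes, 18 followed FRO1 within regimes at r above 0.9, 12 followed Solyc02g069200 and 8 followed Solyc02g069190. Unlike the lists of closest genes, these counts leave out only the locus itself, so FRO1 and Solyc02g069200 each count for the other (r = 0.975).

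Other loci of iron acquisition and storage were listed by identifier from general knowledge of tomato, 11 in all, and 10 of them were tested; Solyc01g102610 was left out by the filter, at 0.0175 to 0.175 FPKM. The table does not pair these identifiers with names, so they are given as identifiers. The list included Solyc03g113400, Solyc06g071100 and Solyc07g017780 as plasma membrane proton pumps. Solyc11g018530 rose with iron alone from 28.1 ± 16.6 to 138 ± 77.3 FPKM (n = 3; log2 difference 2.27, adjusted p = 0.030), and Solyc01g100490 from 54.6 ± 17.1 to 168 ± 57.1 FPKM (1.59, adjusted p = 0.012). In that comparison 4 of the 10 rose, 1 fell and 5 were not called, where 2.97% of all tested genes rose and 3.43% fell, with a median log2 difference of 0.28 against 0.01 over all tested genes. With iron and nitrate against control 6 rose and 0 fell, where 6.92% and 8.65% of all tested genes did (median 0.74 against -0.04). With ammonium 4 rose and 1 fell, where 9.89% and 10.9% of all did (0.46 against -0.02). With urea 5 rose and 3 fell, where 9.74% and 17.6% of all did (0.45 against -0.09). Every locus that fell against control was one of the listed proton pumps, while Solyc03g113400 and Solyc07g017780 rose with nitrate. Solyc07g017780 changed in both directions, from 533 ± 23.2 FPKM in control roots to 1158 ± 114 with nitrate (log2 difference 1.11, adjusted p = 5.8e-06) and 318 ± 26.3 with urea (-0.75, adjusted p = 7.2e-05). Solyc06g051550 had a log2 difference of 0.05 with iron alone (adjusted p = 0.96) and was higher with urea, at 120 ± 27.5 against 56.9 ± 11.8 FPKM (1.05, adjusted p = 0.024). Against iron alone, 3 of the 10 rose with nitrate, where 4.58% of all tested genes rose. With ammonium 1 of the 10 rose, where 6.29% of all rose. With urea 1 rose and 4 fell, where 5.75% and 13.2% of all did. Those that fell were Solyc06g050980 and the listed proton pumps. A count of 1 among the 10 is near these background shares.

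The genes next to the 3 loci by identifier were also read, since neighbouring genes can share reads. Solyc01g094900, just before FRO1, was low at 0 to 8.98 FPKM and correlated with FRO1 at 0.899 over the 15 libraries. On its other side Solyc01g094915 was listed at 0 in every library, and Solyc01g094920 had means from 79.1 FPKM in control roots to 45.1 with ammonium (r = -0.661). Beside the IRT pair, Solyc02g069180 had a mean of 37.8 FPKM with iron alone and of 18.9 with ammonium and with urea. The means of Solyc02g069190 were 5.11 FPKM with ammonium and 31.3 with urea. Solyc02g069210 was listed at 0 throughout. Whether reads were counted by strand, and how reads common to similar genes such as the adjacent IRT loci were shared out, is not given in the sources used here, so part of the signal of one locus may be that of its neighbour.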

How the data were processed

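The authors deposited FPKM values, in a table of 34075 genes by 15 libraries, the unit being read from the table's name. The submitters' processing notes name HISAT2; its version, the genome build and the tool that gave FPKM are not given in the sources used here. Columns were matched to libraries through the library names in the labels, and 0 libraries held identical values. FPKM corrects for depth but not for RNA composition.

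With limma 3.58.1 in R 4.3.3 (variances with a mean-variance trend), regime means were fitted to log2(FPKM + 1) of all 15 libraries for the 18889 genes (55.4%) that reached 1 FPKM in 3 or more libraries, and the fit was checked on simulated data. The 10 comparisons cover all pairs of regimes, and p-values are two-sided and Benjamini-Hochberg adjusted within a comparison. An exact permutation test of 3 against 3 libraries cannot go below 0.1. Relative depth came from the most frequent ratio of low values between libraries, and all 105 pairs matched within 0.05 (log2).

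The loci were set by identifier and not by value, but earlier results of these data were known when loci, lists and tests were chosen. Also named were some of the nearest rows by identifier, the 3 tested genes most correlated with each locus, and examples, chosen after their values were seen, of 11 iron loci listed from general knowledge. The names FRO1 and IRT came with the loci: the RefSeq table of assembly SLM_r2.1 holds a FRO1 on chromosome 1 but 0 of the identifiers, so no sequence is given. Alternatives covered the pseudocount (0.1), the filter (none, or an average of 5 FPKM or more), the scaling (size factors, quantile normalization, equal FPKM totals), the variance trend, the libraries fitted (the groups compared alone, or 1 removed) and a block for the replicate number.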

Additional observations from a re-analysis of the deposited data

How the results depend on the processing

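Of 33 tests of the 3 loci (10 comparisons and the test over all regimes each), 20 kept their direction and their side of the threshold under every alternative run, 9 crossed the threshold in some, and 4, all of them uncalled, changed sign in some. Those 4 were ammonium against iron alone for FRO1 (-0.13 to 1.17 with single libraries left out), Solyc02g069200 (-0.64 to 0.40, and 0.0045 with size factors) and Solyc02g069190 (-0.37 to 0.39), and ammonium against urea for FRO1 (-0.51 to 0.40). The log2 differences and adjusted p-values that crossed the threshold were as follows; the cause was not tested. For Solyc02g069190 after iron alone, the call (1.50) was lost without a filter (adjusted p = 0.0582), without the variance trend (0.0501), with the replicate block (1.50, 0.0504) and with only these groups (0.106). Its difference between nitrate and ammonium fell short at a pseudocount of 0.1 (1.65, adjusted p = 0.0731), without a filter (1.47, 0.0592), with the replicate block (1.47, 0.0523) and with only these groups (1.47, 0.0801), and that between nitrate and iron alone with only these groups (1.54, 0.077). With only these groups FRO1 lost its call for ammonium against control (2.84, 0.0522), and Solyc02g069190 gained one for nitrate against urea (-1.01, 0.0261). The replicate numbers showed little sign of pairing the libraries, but correlations this weak cannot exclude it. Departures from regime means of same-numbered libraries correlated over genes at -0.106 to 0.141 (median 0.019). Differently numbered libraries correlated at -0.236 to 0.139 (median -0.017). Of the same-numbered pairs, 3 of 30 lay above 0.1, and 5 of 15 libraries correlated best with their own number. The block changed no other call.

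With single libraries left out, the log2 difference of FRO1 ranged from 1.38 to 2.97 for iron alone against control, 1.99 to 3.48 for ammonium and 2.15 to 3.64 for urea, and its F statistic from 4.31 to 8.65. For Solyc02g069200 against control it ranged from 0.67 to 2.21 for iron alone, 2.12 to 3.64 for nitrate, 0.64 to 2.16 for ammonium and 1.75 to 3.26 for urea. For Solyc02g069190 it ranged from 1.21 to 1.93 for iron alone against control, 1.28 to 1.89 for ammonium against control, 1.10 to 1.83 for nitrate against iron alone, 1.14 to 1.75 for nitrate against ammonium and -1.28 to -0.83 for nitrate against urea.

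The number of genes called over the whole table was 1209 for iron alone, 2204, 2621 and 3588 for nitrate, ammonium and urea against iron alone, 1333 for nitrate against ammonium and 2088 for ammonium against urea. With only the groups compared it was 708, 1192, 1318, 2317, 791 and 900. With single libraries left out it ranged from 534 to 1381, 1225 to 2250, 1618 to 2636, 2434 to 3566, 841 to 1350 and 974 to 2175. Depth limits the lowest values, such as FRO1 at 0.464 FPKM in control replicate 1, whose read number is unknown.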
